A study of Mus musculus with 9 samples.

Results

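The telomerase and CST genes described here are 10 listed mouse genes: Tert, Dkc1, Nop10, Gar1, Nhp2, Wrap53, Tep1, Ctc1, Stn1 and Ten1. They were chosen by name, and all 10 were found among 35532 gene symbols with a matched transcript. All 10 were also among the 13366 genes with a mean level of at least 1 CPM, the count scaled to the effective library size. The samples are 9 clones of the mouse embryonic stem cell line E14, each grown out from the bulk line on gelatin in FBS/LIF medium and sequenced once with a stranded mRNA kit. The clones, numbered 1, 4, 6, 8, 10, 11, 13, 14 and 17, were isolated for differing lipid droplet size, which is not stated for single clones in the labels. The clones therefore have no groups, no clone is a replicate of another, and no test between clones was made. The title of the series names telomere homeostasis and the exit from naive pluripotency.

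Telomerase adds telomere repeats to chromosome ends. Its catalytic subunit is the reverse transcriptase TERT, which copies a template held in the telomerase RNA. That RNA carries an H/ACA domain bound by dyskerin, NOP10, NHP2 and GAR1, the proteins that also serve the H/ACA RNAs guiding pseudouridylation of ribosomal RNA. WRAP53, also called TCAB1, brings the particle to Cajal bodies, and TEP1 is a telomerase-associated protein that is also a component of vault particles. The CST complex of CTC1, STN1 and TEN1 binds single-stranded DNA, recruits polymerase alpha to fill in the lagging strand of telomeres and limits telomerase. Pluripotent stem cells keep telomerase active. The telomerase RNA gene Terc is not analysed here, since none of the transcripts used carried its name.

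All positions are on GRCm38. Nhp2 lies on chromosome 11 from 51619735 to 51623714, Ctc1 from 69015911 to 69036473, Wrap53 from 69561758 to 69580255, and Ten1 from 116198855 to 116215318. Elsewhere, Tert lies on chromosome 13 from 73626911 to 73649843, Dkc1 on chromosome X from 75095854 to 75109777, and Nop10 on chromosome 2 from 112261926 to 112263269. Gar1 lies on chromosome 3 from 129824912 to 129831396, Tep1 on chromosome 14 from 50824059 to 50870560, and Stn1 on chromosome 19 from 47501033 to 47537507. All are protein-coding genes. In a search of the transcripts used for matches of at least 200 bases and 90% identity, 3 members had other hits: Dkc1 (Gm13776 and Olfr1202), Gar1 (Gm13350) and Nhp2 (Gm47261). None of these hits exceeded 0.227 CPM in any clone. Dkc1 and Nhp2 overlap Mpp1 and Rmnd5b on the opposite strand by 45 and 44 bases. Rmnd5b was lowest in clone 10 (61.8 CPM) and highest in clone 1 (131 CPM), and Mpp1 stayed between 30.9 and 47.8 CPM. The overlapping genes Gm25520 (Dkc1), Gm26782 (Tep1) and Gm19557 (Stn1) are not analysed here. The kit marks strand, but no source used here says whether the counting did.

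The chromosome 11 members are set against the other members below. Stretches before the starts of Nhp2, Wrap53, Ctc1 and Tert are shown, taken from RefSeq (GRCm38.p6) and ending where an annotated exon begins. Nhp2 is at chr11:51619523-51619734 and Ctc1 at chr11:69015661-69015910, both on the plus strand. The Wrap53 stretch, before 1 of its RefSeq starts and within the annotated gene, is at chr11:69579325-69579499 on the minus strand. That of Tert is at chr13:73626661-73626910 on the plus strand. Each reads 5′ to 3′, and capitals mark matches to 6 motifs searched on both strands: the E-box CACGTG, the GC box GGGCGG, the NRF1 motif, the ETS motif CCGGAAGT, the CCAAT box CCAAT and the TATA box TATAAA.
Nhp2: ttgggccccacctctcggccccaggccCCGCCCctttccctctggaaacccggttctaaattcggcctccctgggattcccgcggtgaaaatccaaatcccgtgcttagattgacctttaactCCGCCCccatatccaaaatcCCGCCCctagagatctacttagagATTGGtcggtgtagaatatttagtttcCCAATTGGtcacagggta
Wrap53: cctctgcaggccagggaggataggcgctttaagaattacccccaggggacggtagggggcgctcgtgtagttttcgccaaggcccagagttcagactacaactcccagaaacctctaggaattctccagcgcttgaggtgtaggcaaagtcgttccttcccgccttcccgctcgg
Ctc1: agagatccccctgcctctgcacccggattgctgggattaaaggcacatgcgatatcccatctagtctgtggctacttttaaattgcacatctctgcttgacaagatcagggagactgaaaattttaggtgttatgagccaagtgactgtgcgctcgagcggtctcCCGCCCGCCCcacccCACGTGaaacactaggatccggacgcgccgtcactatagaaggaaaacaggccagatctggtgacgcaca
Tert: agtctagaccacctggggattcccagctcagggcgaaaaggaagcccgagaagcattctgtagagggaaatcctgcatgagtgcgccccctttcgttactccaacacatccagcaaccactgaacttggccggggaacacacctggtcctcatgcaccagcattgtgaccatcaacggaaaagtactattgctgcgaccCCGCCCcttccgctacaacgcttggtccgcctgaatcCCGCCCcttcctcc
The Nhp2 stretch held 3 GC boxes and 3 CCAAT boxes, 2 of them overlapping, that of Ctc1 held 1 E-box and 2 overlapping GC boxes, and that of Tert held 2 GC boxes. In the Wrap53 stretch these letters were not found. The whole windows of 250 bases, parts of which lie in annotated exons and are not shown, also held an ETS motif for Nhp2 and, before another RefSeq start of Wrap53, an E-box and a CCAAT box. Of 32851 windows of 250 bases before RefSeq starts, 32.7% held the GC box, 33.8% the CCAAT box and 6.02% the E-box, 12.4% the TATA box, 2.88% the ETS motif and 0.782% the NRF1 motif. These shares are for whole windows, and the Nhp2 and Wrap53 stretches, of 212 and 175 bases, are shorter. The window before Ten1 overlaps an annotated exon from its first base and is not shown.

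The libraries held 10783718 to 14309662 estimated counts, lowest in clone 1. Pluripotency markers were high in every clone: summed over 8 genes, among them Pou5f1, Sox2 and Nanog, they reached 2770 CPM (clone 11), 3040 CPM (clone 10) and 3690 to 3880 CPM (the other 7). Single genes did not all follow the sum. Nanog had 326, 309 and 280 CPM in clones 8, 14 and 17 and 265 and 249 CPM in clones 10 and 11. It had 454 to 537 CPM in clones 1, 4, 6 and 13. Pou5f1 had 1150, 1180 and 1290 CPM in clones 8, 14 and 17, against 852 to 1170 CPM elsewhere. Fibroblast markers summed to 63.5 and 54 CPM in clones 11 and 10 and to at most 20.2 CPM elsewhere. Not every gene in this list was highest there. Thy1 had 7.54 and 7.39 CPM in clones 11 and 10 but was highest in clone 4 (10.4 CPM). Dcn was highest in clone 11 (0.629 CPM), but had 0.145 CPM in clone 10 against 0.287 CPM in clone 17. In clones 11 and 10 Col1a1 had 42.5 and 33.4 CPM (at most 7.17 elsewhere), Col1a2 7.9 and 8.77 CPM (at most 1.45) and Col3a1 4.4 and 4.2 CPM (at most 1.07), while Lum and Postn had no count in 7 clones each and at most 0.0762 and 0.489 CPM. Summed trophoblast, mesoderm and neural markers were also highest in clones 10 and 11, but not every gene in these lists was. In clones 10 and 11 Nes had 106 and 98.7 CPM (at most 28.6 elsewhere) and Krt8 had 278 CPM each (at most 56.1). Sox1 was highest in clone 17 (7.11 CPM) and Pax6 in clone 8 (12.5 CPM). Gata3 was highest in clone 14 (2.41 CPM), Elf5 in clone 13 (1.58 CPM) and Tfap2c in clone 6 (82.7 CPM). Intervals below are exact 95% intervals from the counts of 1 library each and cover counting error only. A range is the highest minus the lowest clone in log2 CPM, so that a range of 1 is a 2-fold difference. Deviations are log2 CPM minus the gene's own median over the 9 clones.

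The main feature of these genes was a split by chromosome. The 4 members on chromosome 11 were all lowest in the same 3 clones, 14, 17 and 8, and none of the 6 other members was. Among all genes measured, 14.1% had these 3 clones as their lowest, against 61.3% of the 1071 genes of chromosome 11 and 9.97% of genes on other chromosomes. The share on chromosome 11 was known from earlier work on these data, and 4 of 4 members are to be read against it. The median range was 0.97 for the 4 members on chromosome 11 and 0.46 for the 6 others, beside 0.95 for all chromosome 11 genes and 0.78 for all genes measured. Of the 10 members, 2 had a range of 1 or more, Wrap53 and Tep1, while the background was 35.2%. The threshold passes close to Nhp2 (0.99), Ten1 (0.95) and Tep1 (1.00), so this count depends on small differences. The background, and the shares of genes with a smaller range given below, cover all genes measured and were not matched for level.

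**Figure D1:**
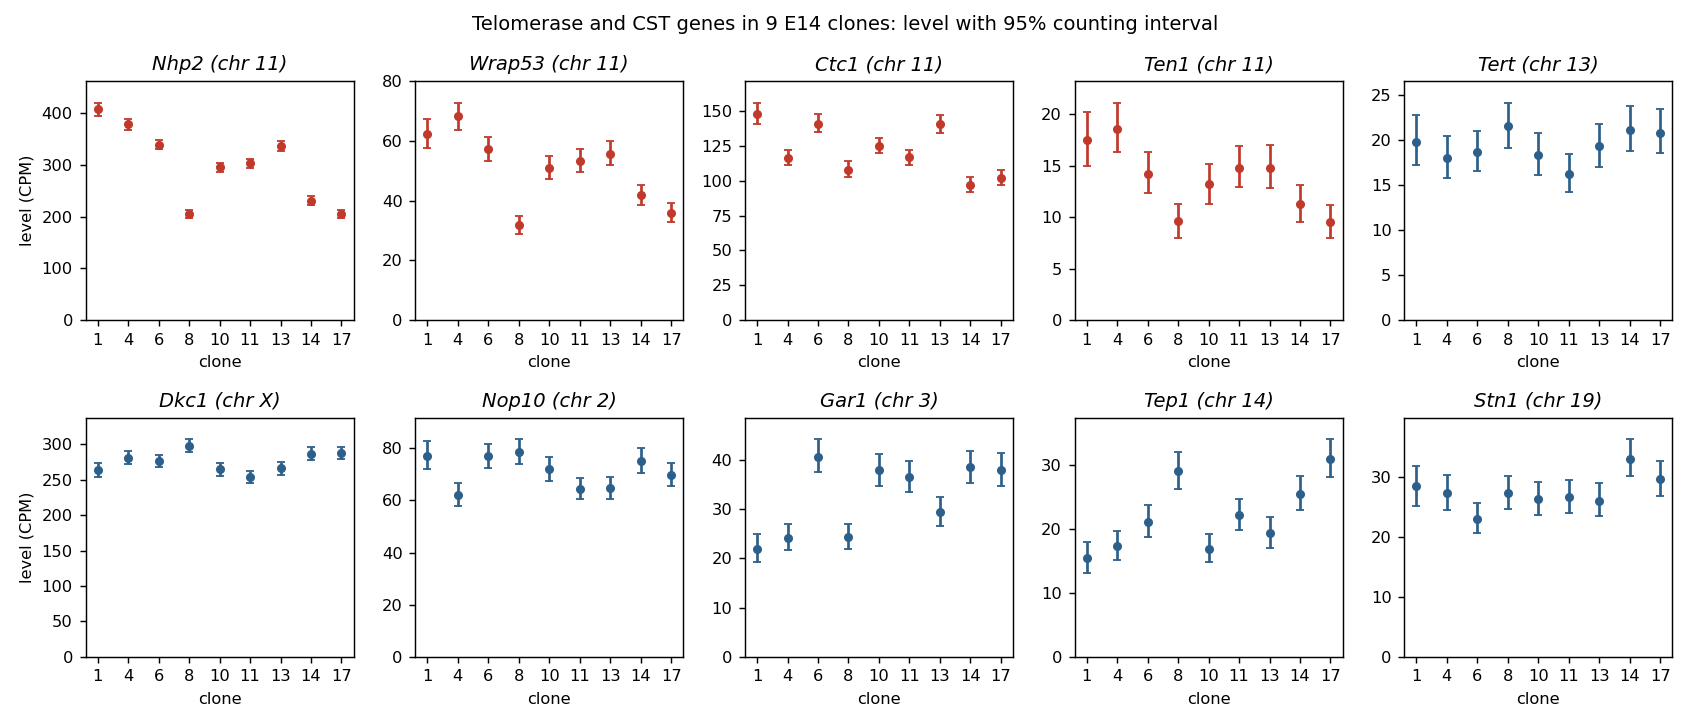
Level in CPM (y axis, from 0) of each member in each of the 9 clones (x axis), with points for single libraries and bars for the exact 95% counting interval. The 4 members on chromosome 11, in red, have their 3 lowest points in clones 8, 14 and 17, and the 6 members elsewhere, in blue, do not.

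Nhp2, a core protein of H/ACA particles, was the most abundant member. It stood at 205, 230 and 205 CPM in clones 8, 14 and 17. The other clones had 407 CPM in clone 1, 378 in clone 4, 339 in clone 6, 337 in clone 13, 303 in clone 11 and 295 in clone 10. Clones 8, 14 and 17 thus lay below all others with no overlap, and the step from clone 14 to clone 10 was 1.28-fold (interval 1.22 to 1.34). From clone 17 to clone 1 the fold was 1.98 (1.89 to 2.08). With 2858 to 4958 counts per library, 5 of the 8 neighbouring pairs in the order of clones differed beyond counting error, the most of any member.

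Wrap53, which carries telomerase to Cajal bodies, had a range of 1.1, the largest of the 10 in CPM over all clones. Tep1 exceeded it with protein-coding transcripts alone (1.16 against 1.11 for Wrap53), without clone 4 (1.00 against 0.98) and without clone 8 (1.01 against 0.94). Nhp2 also exceeded it without clone 4 (0.99) and without clone 8 (0.98). Ten1 did so without clone 8 (0.97), and Gar1 with log2(TPM + 1) (1.22 against 1.00). Wrap53 was at 31.7, 41.8 and 35.9 CPM in clones 8, 14 and 17. Clone 4 had 68.2 CPM, clone 1 62.5, clone 6 57.2, clone 13 55.7, clone 11 53.2 and clone 10 51.1. The 3 low clones did not overlap with the rest, and the fold from clone 8 to clone 4 was 2.15 (interval 1.92 to 2.42). Within the low clones, clone 14 exceeded clone 17 by 1.16-fold (1.03 to 1.31), and among the 6 higher clones no neighbouring pair differed beyond counting error.

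Ten1, the smallest CST subunit, had the same 3 low clones at a lower level. Clones 8, 14 and 17 had 9.59, 11.3 and 9.52 CPM. Elsewhere it reached 18.6 CPM in clone 4, 17.5 in clone 1, 14.8 in clones 11 and 13, 14.2 in clone 6 and 13.2 in clone 10. The fold from clone 17 to clone 4 was 1.96 (interval 1.58 to 2.44). With 132 to 244 counts per library, no neighbouring pair of clones differed beyond counting error, the step between clones 14 and 10 included.

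Ctc1, the large subunit of CST, differed less. Clones 8, 14 and 17 had 108, 97.3 and 102 CPM, close to clone 4 with 116 and clone 11 with 117 CPM, while clones 10, 6, 13 and 1 had 125, 141, 141 and 148 CPM. Its fold from clone 14 to clone 1 was 1.52 (interval 1.42 to 1.64). The gap to clone 4 was small, and with log2(TPM + 1), or with protein-coding transcripts alone, clone 4 took a place among the 3 lowest and only 3 of the 4 chromosome 11 members kept clones 14, 17 and 8 as their lowest. Clone 4, highest for Wrap53 and Ten1, was thus near the low end for Ctc1.

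Set against the other members, the chromosome 11 members had a lower median deviation in 3 of 9 clones. In clone 8 the medians were -0.56 for the 4 chromosome 11 members and 0.12 for the 6 others, in clone 14 -0.34 and 0.10, and in clone 17 -0.56 and 0.08. The differences were -0.68, -0.44 and -0.65 log2 units, with counting error of about 0.11 each. In clones 4, 1, 13 and 6 the difference was positive, at 0.49, 0.33, 0.20 and 0.13, and in clones 11 and 10 it was 0.08 and 0.01, within counting error. When clone 8, 14 or 17 was left out, it was 0.11 in clone 13, 0.02 or 0.03 in clone 6 and -0.08 or -0.07 in clone 10. On the log2(TPM + 1) scale it was 0.32 in clone 4, 0.21 in clone 1, -0.08 in clone 10 and -0.01 in clone 11, so that 5 clones lay below 0. Both sides of the comparison are medians over few genes, and the 4 chromosome 11 genes share a chromosome, so they are not independent of each other.

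**Figure D2:**
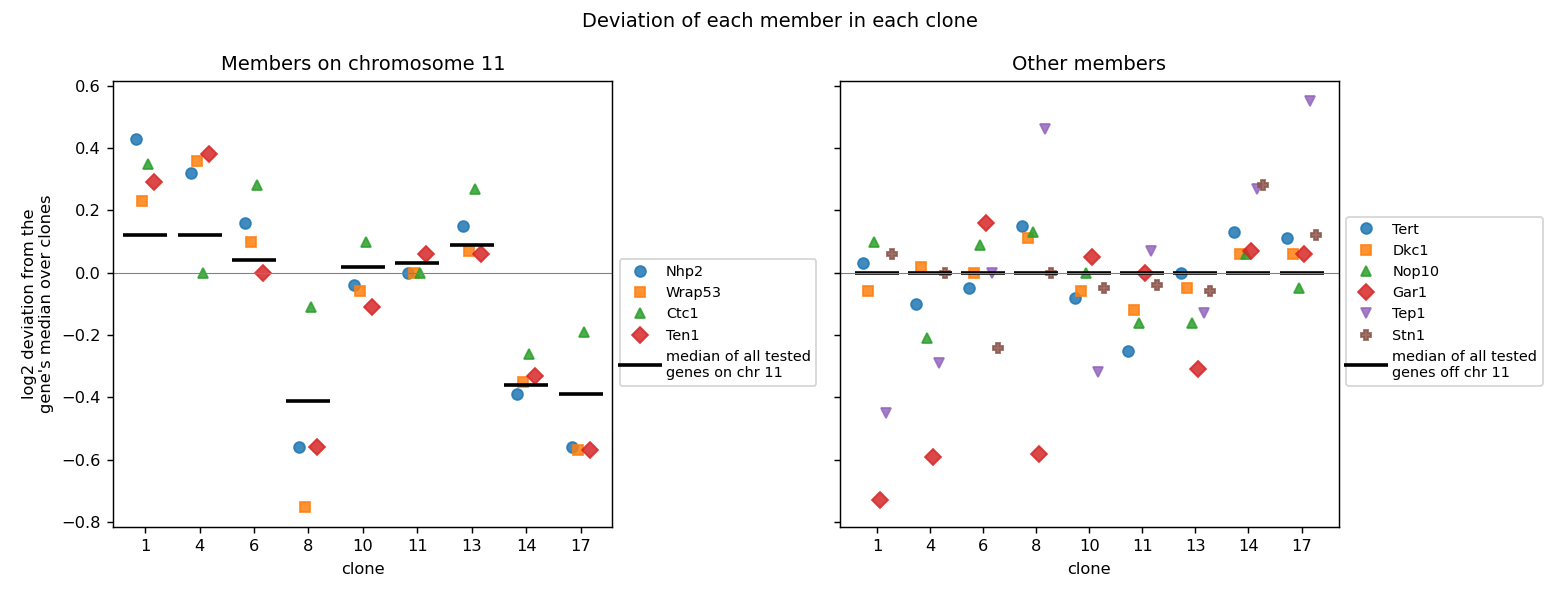
Deviation of each member from its own median over clones in log2 units (y axis) in each clone (x axis), for the 4 members on chromosome 11 on the left and the 6 others on the right, with black lines for the median of all measured genes on and off chromosome 11. In clones 8, 14 and 17 the chromosome 11 members lie between -0.75 and -0.11, around chromosome medians of -0.41, -0.36 and -0.39.

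Chromosome 11 genes as a whole lay at a median deviation of -0.41, -0.36 and -0.39 in clones 8, 14 and 17 and at 0.02 to 0.12 in the other 6. The members were spread around these values. In clone 8 Wrap53 was at -0.75, with 16.6% of the 1071 chromosome 11 genes lower still, Nhp2 and Ten1 were at -0.56, and Ctc1 was at -0.11, above 79.7% of them. In clone 14 the 4 members lay between -0.39 and -0.26. In clone 17 Nhp2, Wrap53 and Ten1 were at -0.56, -0.57 and -0.57 and Ctc1 was at -0.19. The lists of telomerase and CST partners described below held 54 measured genes. Of these, 5 had clones 14, 17 and 8 as their lowest, beside 14.1% of all genes measured. They were all 3 listed genes on chromosome 11, where 61.3% of all genes did so, with Mycn on chromosome 12 and Pinx1 on chromosome 14. On other chromosomes 9.97% of all genes did so. Among markers of other cell types, clones 8, 14 and 17 had 5.28, 2.92 and 7.11 CPM of Sox1 (at most 0.767 elsewhere) and 2.21, 2.48 and 3.09 CPM of Gata4 (at most 1.19 elsewhere). The other genes of the neural and primitive endoderm lists did not follow this and overlapped between these and the other clones. In clones 8, 14 and 17 Nes had 15.3, 19.8 and 14.4 CPM (15 to 106 elsewhere). Pax6 had 12.5, 8.86 and 7.54 CPM (4.8 to 11.3), and Gata6 had 0.285, 0.292 and 0.934 CPM (0.435 to 1.27). Of the whole lists, 2 did not overlap between these and the other clones. Fibroblast markers (7 genes) summed to 5.99, 7.36 and 6.47 CPM in clones 8, 14 and 17, against 11.3 to 63.5 CPM in the others, and mesoderm markers (4 genes) to 3.58, 5.26 and 4.72 CPM, against 8.17 to 42.3 CPM. The other 3 lists overlapped. Neural markers (3 genes) summed to 29.1 to 33.1 CPM in clones 8, 14 and 17 and to 20.6 to 117 CPM in the others, primitive endoderm markers (6 genes) to 7.04 to 10.5 CPM and 5.95 to 11.7 CPM, and trophoblast markers (6 genes) to 66.9 to 106 CPM and 105 to 527 CPM. The part of these markers in the result was not tested. Fewer cells expressing a gene and less RNA per cell cannot be told apart in bulk RNA.

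The 40 measured genes nearest to each member, 20 on each side, gave a local level. Around Nhp2 they lay at -0.27, -0.23 and -0.26 in clones 8, 14 and 17, and Nhp2 was lower than they were by 0.29, 0.16 and 0.30 log2 units. Around Wrap53 they lay at -0.47, -0.29 and -0.22, with Wrap53 at -0.28, -0.06 and -0.35 relative to them. Around Ten1 they lay at -0.52, -0.24 and -0.29, with Ten1 at -0.04, -0.09 and -0.28 relative to them. Ctc1 went the other way and stood above its surroundings by 0.30, 0.11 and 0.21. Ctc1 and Wrap53 share 24 of their 40 neighbours. In the higher clones, Nhp2 exceeded its neighbours most in clone 1, by 0.40, and Ten1 in clone 4, by 0.31. Of the 40 neighbours, 16 around Nhp2, 21 around Wrap53, 26 around Ctc1 and 22 around Ten1 had clones 14, 17 and 8 as their lowest.

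**Figure D3:**
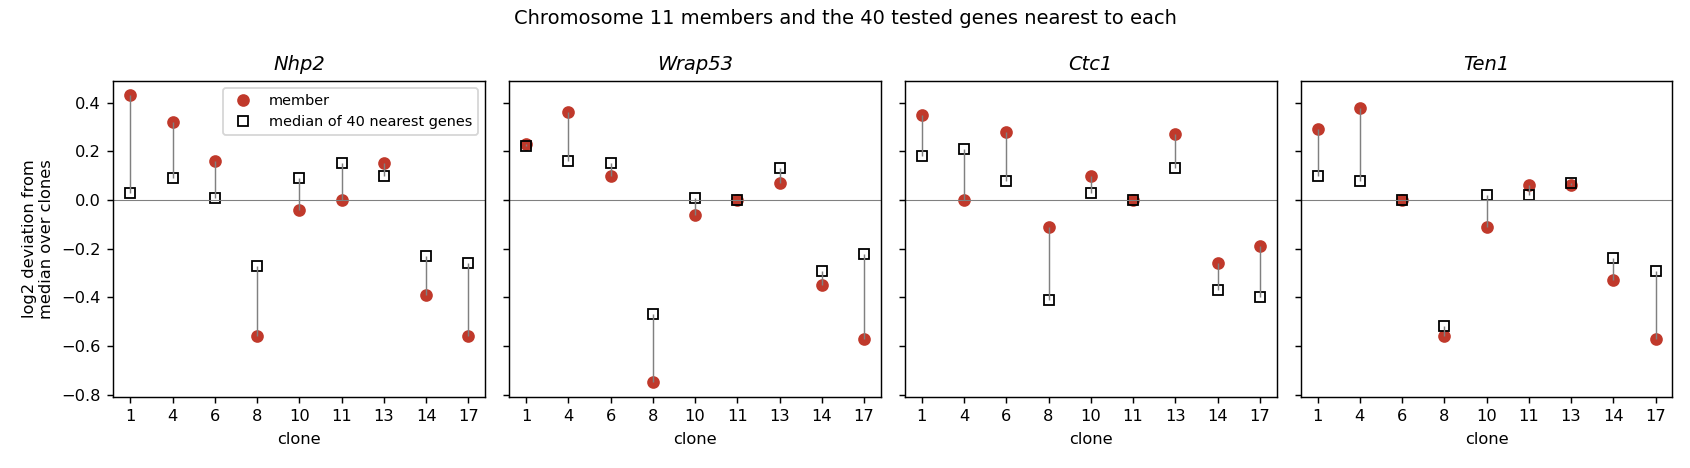
Deviation from the median over clones in log2 units (y axis) by clone (x axis) for Nhp2, Wrap53, Ctc1 and Ten1 (red circles), and the median of the 40 measured genes nearest to each (open squares). In clones 8, 14 and 17 Ctc1 lies 0.11 to 0.30 above its neighbours, and Nhp2, Wrap53 and Ten1 lie 0.04 to 0.35 below theirs.

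Tert, the catalytic subunit, varied little. It was at 21.5 CPM in clone 8, 21.1 in clone 14, 20.8 in clone 17, 19.8 in clone 1, 19.3 in clone 13, 18.6 in clone 6, 18.3 in clone 10, 18 in clone 4 and 16.2 in clone 11. The highest level was thus in the clones with the lowest Wrap53 and Nhp2, but no neighbouring pair in this order differed beyond counting error. Highest over lowest, the fold was 1.33 (interval 1.11 to 1.58), and 13.1% of all genes had a smaller range. The low value in clone 11 lay below all 40 neighbouring genes of chromosome 13 in that clone, by 0.26 log2 units from their median. The order was another in summed TPM, with 8.28 TPM in clone 14, 7.66 TPM in clone 11 and the lowest value, 6.33 TPM, in clone 6. Tert-201, the full-length coding transcript of 4313 bases, held 66.9 to 94.8% of the Tert TPM, between 4.94 TPM (clone 4) and 6.89 TPM (clone 8).

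Dkc1, which encodes the pseudouridine synthase dyskerin, had the smallest range of the 10 in CPM. With log2(TPM + 1) its range was 0.54, above those of Tert (0.34), Stn1 (0.40) and Nop10 (0.44). The lowest, median and highest levels of Dkc1 were 254, 276 and 298 CPM, in clones 11, 6 and 8, a fold of 1.17 (interval 1.12 to 1.23). In CPM 1.35% of genes had a smaller range. Nop10, a small protein that binds dyskerin, had a lowest level of 62.2 CPM in clone 4, a median of 72 CPM and a highest level of 78.7 CPM in clone 8 (1.26-fold, 1.15 to 1.39). Both were highest in clone 8, one of the clones with least Nhp2. For neither gene did any neighbouring pair of clones differ beyond counting error, although the ends of the order did. Stn1, the CST subunit between Ctc1 and Ten1, had a lowest level of 23 CPM in clone 6, a median of 27.2 CPM and a highest level of 33 CPM in clone 14, a 1.43-fold difference (1.24 to 1.66).

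Gar1, the fourth H/ACA protein, had a pattern of its own. Clones 1, 4 and 8 had 21.9, 24.2 and 24.4 CPM and clone 13 had 29.5 CPM, against 36.5 to 40.7 CPM in clones 11, 10, 17, 14 and 6. The steps from clone 8 to clone 13 and from clone 13 to clone 11 exceeded counting error, with folds of 1.21 (interval 1.04 to 1.40) and 1.24 (1.08 to 1.41), and no other neighbouring pair differed beyond it. Highest over lowest, the fold was 1.86 (1.59 to 2.18). The genes around Gar1 on chromosome 3 lay at -0.04 to 0.03 in every clone, so that Gar1 was 0.73, 0.57 and 0.58 log2 units below them in clones 1, 4 and 8. Gar1 and the chromosome 11 members shared only clone 8 among their 3 lowest.

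Tep1, which is shared between telomerase and vault particles, was at 31, 29 and 25.5 CPM in clones 17, 8 and 14, the same 3 clones in which the chromosome 11 members were lowest. It was at 22.2 CPM in clone 11, 21.1 in clone 6, 19.3 in clone 13, 17.3 in clone 4, 16.9 in clone 10 and 15.4 in clone 1. The 3 highest clones did not overlap with the rest, but the step from clone 11 to clone 14 was within counting error. Tert and Dkc1 also had clones 8, 14 and 17 as their 3 highest, with steps to the next clone within counting error. The share of all genes with these 3 clones highest was not determined. The fold from clone 1 to clone 17 was 2.01 (interval 1.67 to 2.43). Tep1 stood 0.42, 0.27 and 0.53 log2 units above its neighbours on chromosome 14 in clones 8, 14 and 17.

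Levels of different genes are compared per transcript length, in TPM as deposited. Nhp2 was the highest member in all 9 clones, with a median of 520 TPM, followed in every clone by Dkc1 (229) and Nop10 (101). Gar1 (86.7), Ctc1 (65.2) and Wrap53 (44.7) came next, Ten1 (25) and Stn1 (23.3) were close to each other, and Tert (7.05) and Tep1 (4.88) were lowest. Ten1 exceeded Stn1 in the 6 clones other than 8, 14 and 17, and was below it in these 3. The ratio of Ten1 to Stn1 was 0.727, 0.733 and 0.722 in clones 8, 14 and 17 and 1.06 to 1.52 in the others. The 3 low values did not overlap with the rest, also with protein-coding transcripts alone, where they were 0.739 to 0.786 against 1.1 to 1.5.

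Within the H/ACA core, the ratio of Nhp2 to Dkc1 was 1.20, 1.41 and 1.32 in clones 8, 14 and 17 and between 2.02 in clone 10 and 3.14 in clone 1 elsewhere. With protein-coding transcripts alone it was 1.99, 2.33 and 2.17 in these clones and 3.10 to 4.42 elsewhere. The ratio of Wrap53 to Dkc1 ran alike, at 0.0966, 0.132 and 0.120 against 0.181 to 0.253. Nop10 to Dkc1 varied less, from 0.363 in clone 4 to 0.535 in clone 1, and Dkc1 to Tert lay between 27.4 in clone 11 and 37.6 in clone 8. With protein-coding transcripts alone the order of Dkc1 to Tert was another. Clone 11 then had the highest ratio, 24.8, and clones 17 and 8 the lowest, 18.6 and 19.1. Gar1 to Dkc1 was lowest in clones 8, 1 and 4, at 0.207, 0.237 and 0.247, and highest in clone 6, at 0.461. With protein-coding transcripts alone the same 3 clones were lowest, and clone 10 was highest, at 0.378. Levels of mRNA are given here, and protein was not measured.

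**Figure D4:**
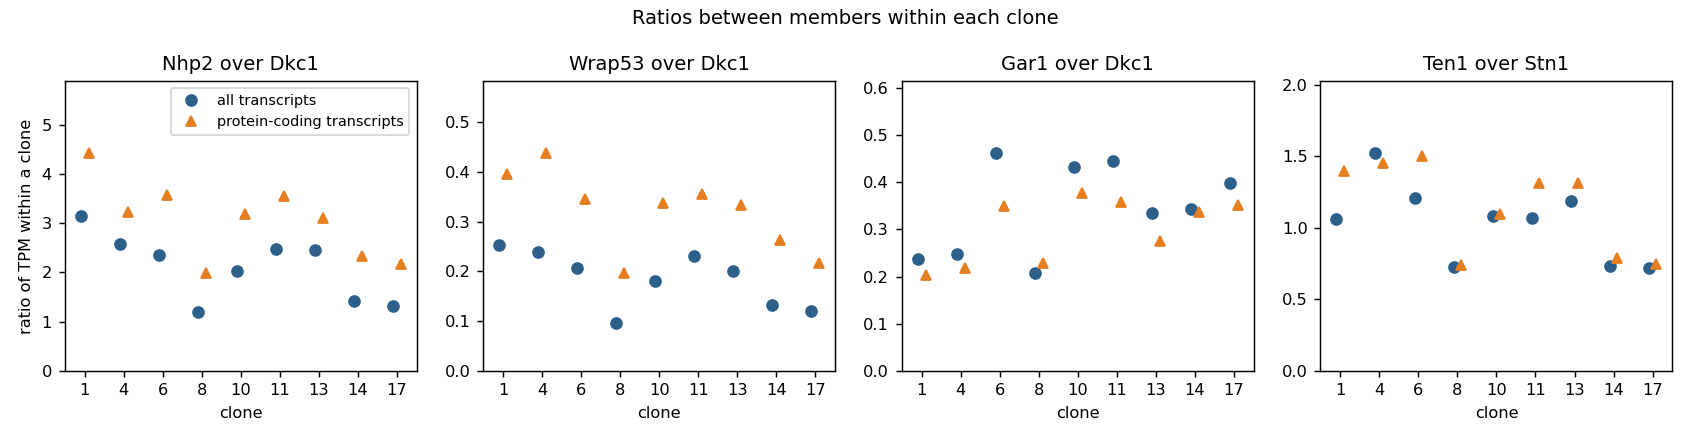
Ratio of TPM between members within a clone (y axis, from 0) by clone (x axis), from all transcripts (circles) and from protein-coding transcripts (triangles). Nhp2 over Dkc1, Wrap53 over Dkc1 and Ten1 over Stn1 are lowest in clones 8, 14 and 17, and Gar1 over Dkc1 in clones 1, 4 and 8.

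The transcripts behind these sums differed between members. Dkc1-201, coding, held 51.2% of the Dkc1 TPM over all clones, and the processed transcript Dkc1-211 held from 2.66% in clone 11 to 20% in clone 4. Nop10 has 1 transcript, and Ten1-201, Wrap53-201 and Stn1-201, the coding transcripts of 902, 1891 and 1992 bases, held 94.6%, 90.8% and 74.1% of their genes' TPM over all clones. Nhp2 had 2 transcripts: the coding Nhp2-202 and Nhp2-201, annotated with a retained intron. Nhp2-201 held 32.9% of the gene's TPM in clone 4 and 26.6% in clone 13, against 13.4 to 21.1% in the other 7 clones. In clone 4 it was at 192 TPM, and Nhp2-202 at 390 TPM, below the 511 TPM of clone 1. Nhp2-202 alone was at 262, 282 and 262 TPM in clones 8, 14 and 17 and at 390 TPM or more elsewhere, so that the same 3 clones were lowest.

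Short transcripts made up much of Gar1, Ctc1 and Tep1. Gar1-205, a retained-intron transcript of 418 bases, held 45.5 to 57.3% of the Gar1 TPM on 45.6 to 173 counts, while the coding Gar1-201 and Gar1-206 held 20.8 to 34.4% and 15.3 to 25.2%. Gar1-201 was at 14.3, 15.4 and 16.4 TPM in clones 4, 1 and 8, next lowest in clone 13 with 17.1 TPM, and highest in clone 11 with 28.2 TPM. Ctc1 was divided between the coding Ctc1-202 and Ctc1-201, and Ctc1-202 was lowest in clone 4, at 15.8 TPM, and next lowest in clones 17 and 14, at 20.7 and 21.2 TPM. Clone 8 had 24.4 TPM and the other 5 clones 27.2 to 33.0 TPM. Ctc1-209, a retained-intron transcript of 516 bases, held from 4.32% of the Ctc1 TPM in clone 4 to 26.2% in clone 6, on at most 85.5 counts. For Tep1 the full-length Tep1-201, of 8171 bases, held from 31.3% of the TPM in clone 1 to 86% in clone 14. Tep1-201 alone was at 5.02, 4.84 and 4.14 TPM in clones 17, 8 and 14 and lowest in clone 1, at 2.14 TPM, the same ends as in CPM. The summed Tep1 TPM instead gave 6.83 TPM to clone 1 and 4.82 TPM to clone 14, of which Tep1-207, a decay-annotated transcript of 737 bases with at most 9.84 counts, held 2.04 and 0.408 TPM.

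**Figure D5:**
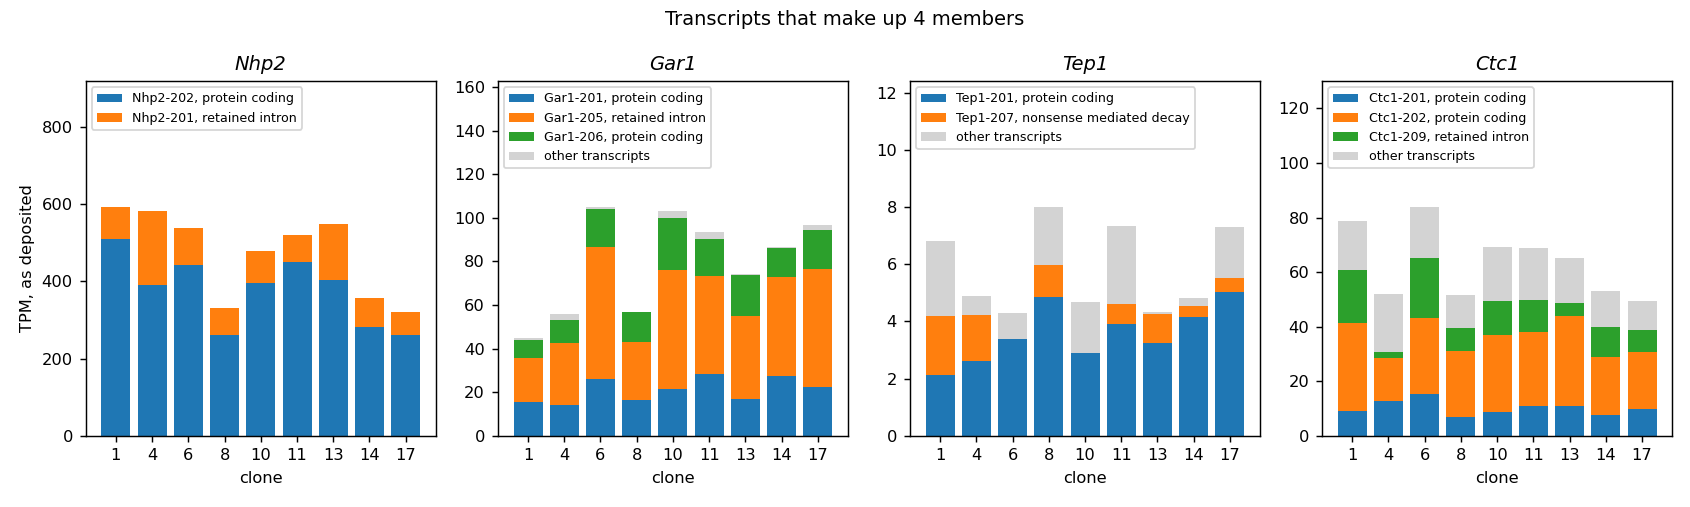
TPM as deposited (y axis, from 0) by clone (x axis) for Nhp2, Gar1, Tep1 and Ctc1, stacked by transcript, with transcripts under 10% of the gene in grey. The blue coding part of Tep1 is lowest in clone 1 although the summed bar there, at 6.83 TPM, is above that of clone 14, at 4.82 TPM.

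For the 3 members with the largest range, the protein-coding genes with the most alike pattern over the 9 clones were taken by the root mean square difference of the deviations. For Wrap53 these were Prpsap1, Srebf1 and Ten1, all on chromosome 11, at 0.075, 0.077 and 0.079 log2 units. For Nhp2 they were Jpt1 and Rangrf on chromosome 11 and Rpn1 on chromosome 6, at 0.054, 0.076 and 0.079. For Tep1 they were Rreb1 on chromosome 13, Klf13 on chromosome 7 and Usp54 on chromosome 14, at 0.08, 0.122 and 0.125. Srebf1, a regulator of lipid synthesis genes, had 70 CPM (clone 8) to 131 CPM (clone 4).

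Lists of genes that work with telomerase, CST or related RNA particles held 55 symbols. Papd5 was not found under that symbol, an earlier name of Tent4b, which is also listed and was measured. Of the 54 measured genes, 6 (11.1%) had a range of 1 or more, beside the background of 35.2%, which was not matched for level. The median range over the 54 genes was 0.50. Of 9 H/ACA assembly factors 1 passed, Naf1, which loads the RNA onto dyskerin before Gar1 takes its place, highest in clone 14 with 87.1 CPM and lowest in clone 1 with 40.9 CPM. None of 9 genes for trimming the end of the telomerase RNA passed, with ranges of 0.32 to 0.81. Of 13 regulators 1 passed, the RNA-binding protein gene Hnrnpa1, highest in clone 14 with 1140 CPM and lowest in clone 1 with 524 CPM. Of 7 polymerase alpha and RPA genes 1 passed, Pola1, the catalytic subunit that CST recruits, highest in clone 8 with 216 CPM and lowest in clone 11 with 108 CPM. Of 12 transcription factors linked to Tert 2 passed: Mycn was highest in clone 11 with 303 CPM and lowest in clone 8 with 119 CPM, and Wt1 highest in clone 11 with 4.06 CPM and lowest in clone 1 with 1.07 CPM. Of 4 box C/D proteins, the counterparts of the H/ACA proteins in methylation guide particles, 1 passed, Fbl, highest in clone 14 with 308 CPM and lowest in clone 1 with 139 CPM. Among the 3 listed genes on chromosome 11, the Cajal body gene Coil lay between 66.9 CPM (clone 14) and 112 CPM (clone 4). Rpa1, of the single-strand binding complex RPA, lay between 340 CPM (clone 8) and 617 CPM (clone 4), and Smg6 between 54.4 CPM (clone 17) and 82 CPM (clone 10).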

How the data were processed

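RNA-seq of 9 E14 clones was used, each clone as 1 sample without a group. The submitters' processing notes name kallisto 0.43.1, Trimmomatic 0.33, CASAVA 1.8 and FastQC, and the builds GRCm38 and mm10. The estimated counts, not always whole, and the TPM values, scaled for transcript length and depth, are as deposited by the authors for 115270 transcripts. Of these, 98.53% matched GENCODE M21 by Ensembl identifier and were summed per gene symbol, and the rest held 0.641 to 0.773% of the counts. CPM used edgeR 4.0.16 TMM factors (R 4.3.3), and log2 CPM a prior count of 2. Genes averaging at least 1 CPM count as measured. Fold intervals are exact 95% binomial intervals from rounded counts, and cover counting error only. Alternatives were DESeq2 1.42.0 size factors, no filter, 5 CPM, a prior count of 0.5, log2(TPM + 1), coding transcripts, the mean as reference, and each clone left out. The steps were checked on simulated data. The members and lists were chosen with earlier results of these data known. The text names all members, transcripts with 10% or more of a member's TPM, overlapping genes (1 is not reported here), the 3 genes most alike for each of 3 members, and list genes with a range of 1 or more. Coil, Rpa1, Smg6, Pinx1 and the single markers of other cell types, Sox1 and Gata4 among them, were named after their values were seen. The levels of Nanog and Pou5f1 were also chosen in this way. Python 3.11.15, pandas 2.3.3 and scipy 1.17.1 were used.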

Additional observations from a re-analysis of the deposited data

How the results depend on the processing

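The number of members with a range of 1 or more, 2, was 1 with log2(TPM + 1), 3 with protein-coding transcripts alone (Nhp2, Wrap53 and Tep1) and 0 to 2 with a clone left out, being 0 without clone 4 and 1 without clone 1, 6, 8, 11, 13 or 17. The number of clones in which the chromosome 11 members lay below the others, 3, was 5 with log2(TPM + 1), and 4 with a minimum of 5 CPM, where clone 10 was at -0.02, and the cause was not tested. Without clone 8, 14 or 17 it was again 3, clone 10 having come below 0. The median range of the members, 0.75, was 0.65 to 0.76 with a clone left out and 0.66 to 0.76 under the other alternatives. Coding transcripts alone gave ranges of 0.15 for Dkc1 and 0.50 for Ctc1, and log2(TPM + 1) gave 0.54 for Dkc1, 1.22 for Gar1, 0.88 for Nhp2 and 0.75 for Ctc1. Without clone 17 the difference between chromosome 11 members and others in clone 14 was -0.56, the reference median having changed with the clones left. Depth limits Ten1, Tert, Tep1, Stn1 and Gar1, with 132 to 584 counts per library. No paired analysis was possible because the labels give no groups.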
